A study of Homo sapiens with 15 samples.

Results

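The genes that encode the subunits of the proteasome were followed through a dose series of martinostat, an inhibitor of histone deacetylases (HDACs), in K562 cells, an established human chronic myeloid leukemia line that carries BCR-ABL. All protein-coding genes whose symbol begins with PSM, continues with a letter from A to G and ends in a number were taken, which gave 48 of the 60649 genes in the count table. They were sorted by the part of the complex they build. There were 7 genes of the outer 20S alpha rings, 7 of the constitutive 20S beta rings, 3 inducible catalytic genes, 2 tissue-restricted 20S genes, 6 ATPases and 11 non-ATPases of the 19S regulatory particle, 7 assembly chaperones (PSMG1 to PSMG4, PSMD5, PSMD9 and PSMD10), 4 activators (PSME1 to PSME4) and 1 inhibitor (PSMF1). The count filter kept 46 of the 48. The tissue-restricted genes PSMA8 and PSMB11 did not pass it.

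The proteasome degrades proteins that carry ubiquitin chains. Its barrel, the 20S core, is a stack of alpha and beta rings with the active sites on the inner face of the beta rings, and the 19S particle at either end binds the ubiquitin chain, removes it and threads the unfolded substrate into the barrel with its ATPase ring. Cells exposed to interferon, and many blood cells, exchange the constitutive catalytic subunits PSMB5, PSMB6 and PSMB7 for PSMB8, PSMB9 and PSMB10, which changes the peptides offered to major histocompatibility complex (MHC) class I molecules. This exchanged form is the immunoproteasome. When proteasome activity falls short, the transcription factor NFE2L1 raises the constitutive subunit genes together. Proteasome inhibitors are used against blood cancers such as multiple myeloma.

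Poly(A) mRNA of untreated K562 cells and of K562 cells kept for 24 h with 0.15, 0.25, 0.5 or 1 µM martinostat was sequenced, with 3 libraries of independent biological replicates in each of the 5 groups. The p-values measure the spread between these libraries. The cells are an established line with no other genetic change or agent named for any group, and levels of proteins or proteasome activity were not among these data. Libraries held 23755510 to 32805574 counts. Values are CPM, counts divided by the library size on a fixed scale, with each library size multiplied by a factor from the trimmed mean of M values method (TMM), which evens out differences in composition. These factors were 0.784 to 0.828 in the untreated libraries and 0.950 to 1.28 in the treated ones, and the third replicates at 0.25 and 0.5 µM stood apart with 1.28 and 1.22. The 6 genes taken as markers of K562 cells were all above 1 CPM in every group, while their summed level was 2141 to 2342 CPM in untreated cells and 499 to 600.2 CPM at 1 µM. The 3 monocyte markers summed to 0.386 to 1.06 CPM untreated and 22.8 to 31.4 CPM at 1 µM, the 4 lymphocyte markers to 2.82 to 5.24 and 9.26 to 10.4 CPM, the 3 fibroblast markers to 21.9 to 25.4 and 301 to 486 CPM, and the 2 epithelial markers to 130.2 to 148 and 18.6 to 22.3 CPM. KRT5 of the epithelial and MS4A1 of the lymphocyte markers had 0 counts in untreated cells, and 0 of the 3 monocyte markers passed 1 CPM untreated against 1 at 1 µM. The part of these markers in the values of the proteasome genes was not tested. In RNA from a whole culture, less transcript in each cell and fewer cells with the transcript cannot be told apart.

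Most of the proteasome genes fell at every dose, and the inducible subunit gene PSMB9 was the exception that rose at every dose. A gene was called changed at a Benjamini-Hochberg (BH) adjusted p under 0.05 in the quasi-likelihood test of edgeR, fitted over 23711 genes. Of the 46 genes tested, 35 fell and 2 rose at 0.15 µM, where 19.4% of all genes tested were called lower and 31.9% higher. At 0.25 µM 39 fell and 2 rose, against 24.8% and 37.4% of all genes. At 0.5 µM 36 fell and 2 rose, against 27.6% and 39.4%, and at 1 µM 37 fell and 2 rose, against 27.5% and 38.8%. The share of proteasome genes called lower was thus above the background at each dose and the share called higher below it. The genes that rose were PSMB8 and PSMB9 at 0.15 and 0.25 µM, and PSMB9 and PSME1 at 0.5 and 1 µM.

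The 4 comparisons with untreated cells share the same untreated libraries. Within them, 33 genes were lower at all 4 doses, PSMB9 was higher at all 4, and PSMA2, PSMB1 and PSMD13 were called at none. At 1 µM the 3 treated libraries lay below the 3 untreated ones for 38 of the 46 genes and above them for PSMB9 and PSME1. The shares of all genes tested that meet these conditions were not counted, so no excess can be read from these counts. The median log2 fold change of the 46 genes was -0.76, -1.03, -1.12 and -1.12 at the 4 doses in rising order, while that of all genes tested was 0.28, 0.32, 0.34 and 0.32. Nearly all proteasome genes are well expressed, and the 10128 genes that averaged 10 CPM or more had medians of -0.28, -0.40, -0.37 and -0.39. In that better expressed group 40.2%, 48.7%, 48.7% and 48.4% of genes were called lower.

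The size of the fall depended on how libraries were scaled. With plain library totals, 26, 29, 28 and 28 of the 46 genes were lower and 3, 3, 6 and 5 higher at the 4 doses, and the median log2 fold change was -0.40, -0.51, -0.75 and -0.76, while the median of all genes moved up to 0.64, 0.85, 0.72 and 0.67. Under that scaling 8.93%, 12.9%, 19.9% and 20.1% of all genes tested were lower and 40.4%, 49.3%, 46.8% and 45.6% higher. When TMM was computed over the well expressed genes alone (10 CPM or more), 29, 32, 27 and 28 were lower and 2, 3, 6 and 5 higher, against 12.2%, 15.5%, 19.5% and 20% of all genes lower and 38.3%, 47.2%, 48.1% and 46.8% higher. No gene called in the comparisons given here was called in the opposite direction under any of the 25 alternatives, and 29 of the 39 calls at 1 µM were kept under all of them.

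**Figure D1:**
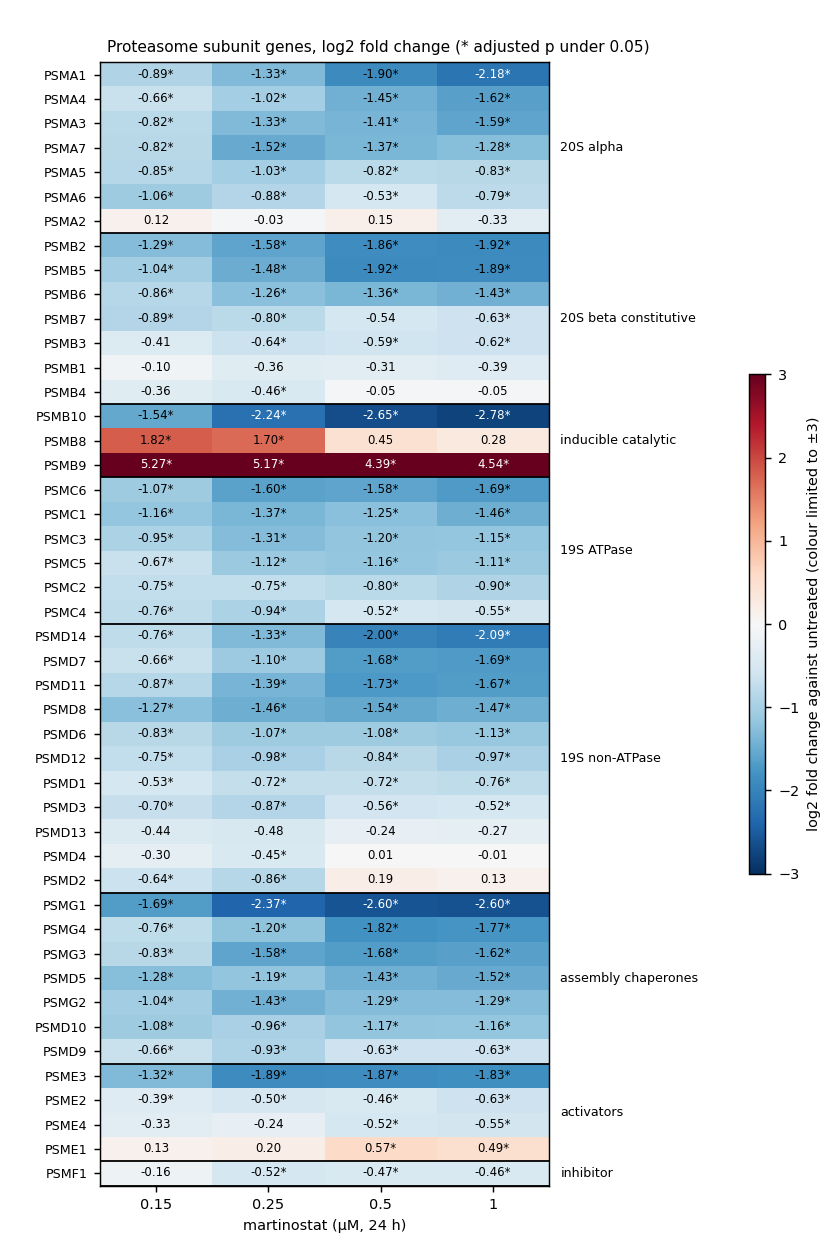
Log2 fold change of the 46 proteasome genes tested, in rows by class and ordered within a class by the value at 1 µM, at each martinostat dose (columns, µM) against untreated K562 cells. Blue is lower and red is higher, numbers are the fitted values and an asterisk marks a BH-adjusted p under 0.05 in edgeR; PSMB9 is the gene with an asterisk on red at all 4 doses, and all 6 ATPases and all 7 assembly chaperones carry an asterisk on blue at all 4.

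In untreated cells the constitutive beta subunits had the highest class median of CPM per kilobase of exon. It was 141.9 over the 7 constitutive beta genes, 47.6 over the 7 alpha genes and 44.4 over the 6 ATPases. The median was 59.7 over the 11 non-ATPases, 28.1 over the 4 activators and 0.555 over the 3 inducible catalytic genes. Exon bases were merged over all annotated transcripts of a gene and not taken from the transcripts that K562 cells express. The order therefore depends on annotated length too. PSMA4 and PSMB7 both had 388 CPM, but with 6994 and 1788 exon bases this gave 55.5 and 217 per kilobase. PSMB3, a structural beta subunit, led with 224 ± 12.4 (SD, n = 3), followed by PSMB7 with 217 ± 1.24, which carries the trypsin-like site. The difference between this pair was smaller than the SD of PSMB3. PSMB9 was last of the 46 with 0.186 ± 0.0623, just under PSMA2 with 0.217 ± 0.0387 and PSMB8 with 0.555 ± 0.111. The last pair in this order, PSMA2 and PSMB9, differed by less than the SD of PSMB9.

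PSMA2, PSMA6, PSMD9 and PSMB10 also lay at the low end of this order, and these genes share exon bases with another gene on the same strand, listed by its ID without a symbol. The shared part was 17.2% of exon bases in PSMA2, 14.1% in PSMA6, 14.9% in PSMD9, 39.4% in PSMB10 and 26.7% in PSMA1, while the other 43 members had 5.21% or less. Fragments in such stretches may not have been assigned to either gene, so the levels of these 5 genes are uncertain and their fold changes rest on the remaining exons. On the opposite strand, exons of NRDE2 lie over 76.2% of the exon bases of PSMC1 and exons of another gene over 31.2% of those of PSMD7. Such overlap was 15.3% in PSMC5, 15% in PSMG4 and 12.45% in PSMA2, and PSMB8 is described below. Without knowledge of the strand setting the counts of these genes are uncertain too. Pseudogenes named after PSMA6 held 33.9% as many counts as PSMA6 itself, and those of PSMA2 held 7.06%, so that reads may also have been split there.

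Among the inducible catalytic genes, PSMB8 and PSMB9 rose at the low doses and PSMB10 fell at every dose. PSMB9 (ENSG00000240065.8, chr6:32844136-32859851, plus strand, hg38) and PSMB8 (ENSG00000204264.12, chr6:32840717-32844679, minus strand) are neighbors in the MHC class II region. PSMB9 replaces PSMB6, the caspase-like subunit. The untreated libraries had 0.777, 0.386 and 0.704 CPM, rising to 20.9, 23.1 and 28.1 CPM at 0.15 µM and 28.6, 24.7 and 14.3 CPM at 0.25 µM. At 0.5 µM it had 15.1, 14.2 and 9.95 CPM and at 1 µM 13.3, 17.8 and 12.6 CPM. Every treated library lay above every untreated one, and the untreated values rest on 10 to 19 counts a library. In rising order of dose the log2 fold changes were 5.27 ± 0.32, 5.17 ± 0.32, 4.39 ± 0.32 and 4.54 ± 0.32 (SE), or 38.5-fold at the lowest and 23.3-fold at the highest dose (edgeR, BH-adjusted p = 1.98e-10 and 3.90e-10).

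PSMB8, which replaces the chymotrypsin-like PSMB5, had 2.37, 1.78 and 1.64 CPM untreated. It had 5.76, 7.73 and 6.99 CPM at 0.15 µM and 7.22, 7.23 and 4.46 CPM at 0.25 µM. At both of these doses all treated libraries were above the untreated ones, and the log2 fold changes were 1.82 ± 0.33 and 1.70 ± 0.33 (SE, edgeR, BH-adjusted p = 1.53e-04 and 2.04e-04). At 0.5 µM PSMB8 had 3.67, 2.59 and 1.74 CPM and at 1 µM 1.56, 3.52 and 1.95 CPM. These values overlapped the untreated ones, with log2 fold changes of 0.45 ± 0.34 and 0.28 ± 0.34 that were not called (BH-adjusted p = 0.245 and 0.474, edgeR). At 0.5 µM the rise was called when libraries were scaled by totals (log2 fold change 0.79), with TMM over the well expressed genes (0.85) and when the pair of libraries that stand apart was left out (0.74, an alternative added after the data were seen), and the value at 1 µM was -0.13 without 1 µM replicate 2. The antisense gene PSMB8-AS1 and PSMB9 lie over 17.3% of the exon bases of PSMB8 on the opposite strand, and since the strand setting of the counting is not known, the values of PSMB8 are uncertain to that extent.

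PSMB10 (ENSG00000205220.12, chr16:67934506-67936864, minus strand), which replaces PSMB7 and whose count is uncertain for the shared exons named above, went the other way. It had 8.71, 7.96 and 8.10 CPM untreated, 3.02, 2.05 and 3.41 CPM at 0.15 µM and 1.83, 1.18 and 2.18 CPM at 0.25 µM. It fell further to 1.28, 1.05 and 1.58 CPM at 0.5 µM and 1.31, 1.21 and 1.08 CPM at 1 µM. The treated libraries lay below the untreated ones at each dose. The log2 fold changes were -1.54 ± 0.27, -2.24 ± 0.28, -2.65 ± 0.29 and -2.78 ± 0.29 (SE), and at 1 µM PSMB10 was 6.85-fold lower (edgeR, BH-adjusted p = 8.89e-08). In direction PSMB10 thus stood against PSMB8 and PSMB9.

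The constitutive partners PSMB5, PSMB6 and PSMB7 were each lower at 0.15 and at 1 µM. PSMB5 and PSMB6 were also called lower at 0.25 and 0.5 µM, while PSMB7 was called lower at 0.25 but not at 0.5 µM. PSMB5 had 178, 202 and 186 CPM untreated, 76.4, 89.2 and 109.8 at 0.15 µM and 51.9, 51.5 and 49.1 at 1 µM. PSMB6 had 109, 121 and 122 CPM untreated, 54.6, 55.3 and 83.9 at 0.15 µM and 44.3, 44.5 and 41.6 at 1 µM. For these genes each treated library at those doses was below each untreated one, and the log2 fold change at 1 µM was -1.89 ± 0.17 for PSMB5 and -1.43 ± 0.18 for PSMB6 (SE, edgeR, BH-adjusted p = 1.24e-08 and 1.24e-06). PSMB7 had 386, 391 and 388 CPM untreated, 175, 198 and 258 at 0.15 µM and 224, 318 and 210.0 at 1 µM. Its log2 fold change was -0.89 ± 0.24 at 0.15 µM and -0.63 ± 0.24 at 1 µM (SE, edgeR, BH-adjusted p = 0.00540 and 0.0284), and the call at 1 µM was lost without untreated replicate 1, 2 or 3 or without 1 µM replicate 1 or 3, with log2 fold changes of -0.84 to -0.52 over all libraries left out, and with library totals (-0.28).

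**Figure D2:**
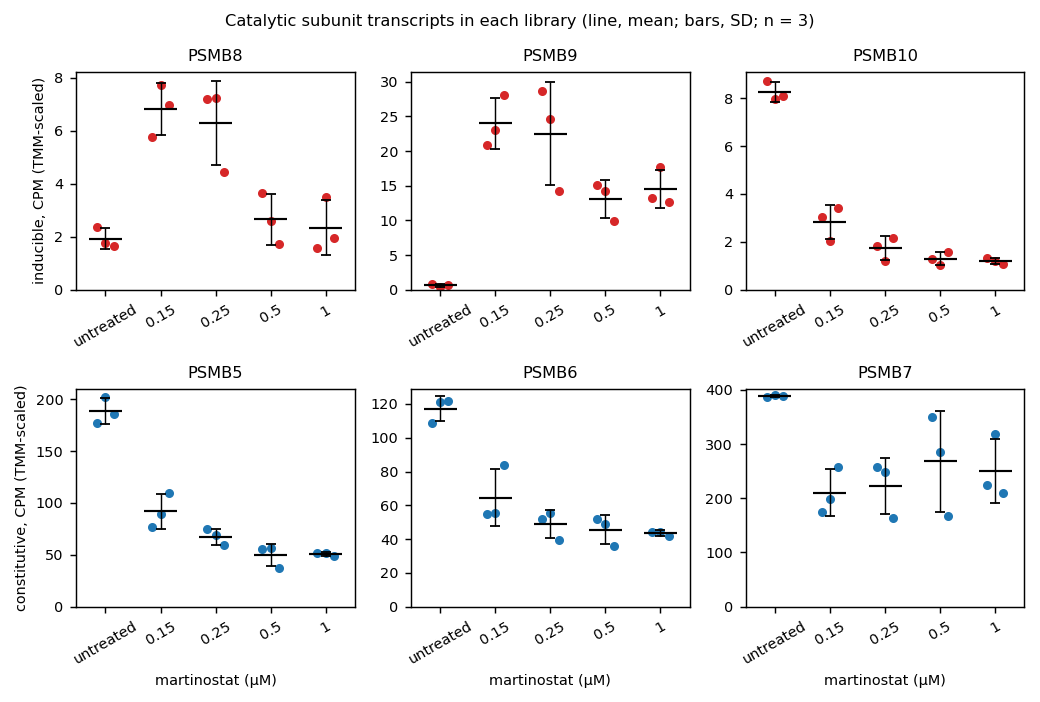
TMM-scaled CPM of the inducible catalytic genes PSMB8, PSMB9 and PSMB10 (upper row, red) above the constitutive genes PSMB5, PSMB6 and PSMB7 that they replace (lower row, blue), by martinostat dose. Points are libraries, black lines group means and bars SD (n = 3), and each panel has its own linear axis from 0; PSMB9 is highest at 0.15 and 0.25 µM, PSMB8 overlaps the untreated libraries again at 0.5 and 1 µM, and PSMB10 is lowest at 1 µM, while the mean of PSMB7 is lowest at 0.15 µM.

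Because the members of a pair come from the same library, their ratio does not depend on how libraries are scaled. The level of a share per kilobase does depend on the annotated exon bases, 3338 for PSMB9 and 1447 for PSMB6, while the change in log2 ratio does not. In counts, 0.15 µM replicate 1 had 595 for PSMB9 and 1554 for PSMB6. Taking CPM per kilobase, PSMB9 made up 0.309%, 0.138% and 0.250% of PSMB9 plus PSMB6 in the untreated libraries and 14.2%, 15.3% and 12.7% at 0.15 µM. At 0.25 µM the share was 19.2%, 16.2% and 13.7%, at 0.5 µM 11.3%, 11.1% and 10.7% and at 1 µM 11.5%, 14.8% and 11.6%. The share was thus higher in all 12 treated libraries than in any untreated one. The log2 ratio of PSMB9 to PSMB6 was higher by 6.13 over the 12 treated libraries than over the 3 untreated ones, a 69.9-fold change (2-sided exact permutation test over 455 arrangements, p = 0.0022, the smallest it can give, BH-adjusted over 18 tests 0.0132). This pooled test treats all libraries as independent, although same-numbered libraries at 0.25 and 0.5 µM were correlated, as given at the end.

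PSMB8 made up 0.591%, 0.390% and 0.392% of PSMB8 plus PSMB5 in untreated cells. The share was 3.25%, 3.71% and 2.75% at 0.15 µM, 4.14%, 4.47% and 3.25% at 0.25 µM, 2.84%, 2.00% and 2.04% at 0.5 µM and 1.32%, 2.96% and 1.74% at 1 µM. The share was above the untreated values in every treated library, also at 0.5 and 1 µM, where PSMB8 itself was not called and PSMB5 was lower. The log2 ratio was higher by 2.63, or 6.19-fold (exact permutation test, p = 0.0022, adjusted 0.0132). PSMB10 was 2.42%, 2.19% and 2.24% of PSMB10 plus PSMB7 untreated and 0.642%, 0.416% and 0.563% at 1 µM. Its log2 ratio over all treated libraries was lower, at -1.59 or 3.01-fold (exact permutation test, p = 0.0022, adjusted 0.0132), with every treated library below the untreated ones.

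Each dose alone could not pass this test, since 3 libraries against 3 cannot go below 0.1. That value was reached for the 3 pairs at all 4 doses (BH-adjusted 0.112). Between 0.15 and 1 µM the log2 ratio differed by -0.19 for PSMB9 (exact p = 0.3) and by -0.78 for PSMB8 (exact p = 0.2), with overlapping libraries, and by -1.45 for PSMB10 (exact p = 0.1), whose libraries did not overlap.

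**Figure D3:**
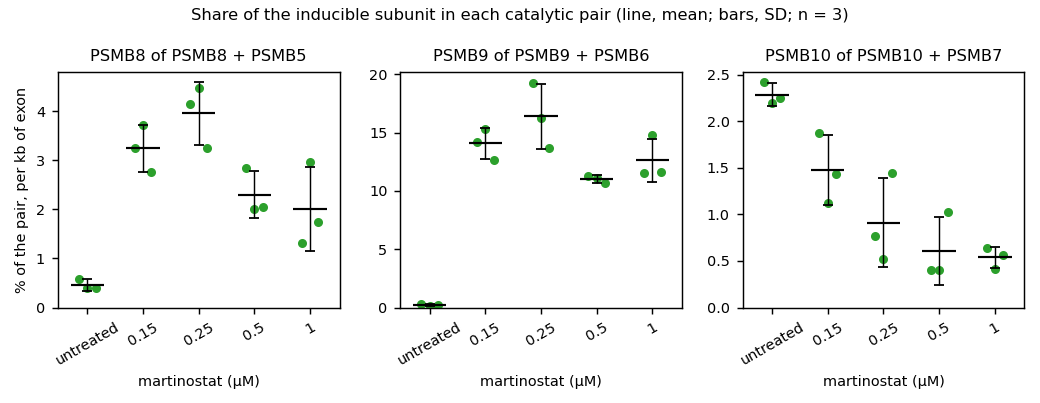
Share of the inducible gene in each catalytic pair, in percent of the summed CPM per kilobase of exon of both genes, by martinostat dose. Points are libraries, lines group means and bars SD (n = 3), on linear axes from 0 that differ between panels; the PSMB9 share goes from a mean of 0.232% to between 11.0% and 16.4%, the PSMB8 share from 0.458% to between 2.01% and 3.95%, and the PSMB10 share falls from 2.28% to 0.540%.

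The promoters of the members were read for short motifs known from proteasome and interferon genes, since the inducible genes were called in opposite directions. RefSeq promoter windows on GRCh38.p14, from 250 bases before to 50 after a start site, were found for 42 of the 48 genes, 51 windows in all, and both strands were searched. The core of the antioxidant response element, which NFE2L1 binds with a small MAF protein, was taken as TGACNNNGC. It was present in 15 of the 51 windows (29.4%) and in 13.4% of all 35116 promoter windows. The core of the interferon response element was taken as GAAANNGAA and was present in 8 windows (15.7%) against 8.11% of all. The CCAAT box was present in 20 windows (39.2%) against 34.6%. A match is a description of the letters and not a binding site, and a gene with several windows was counted once for each window.

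Windows with the interferon response element core are shown for PSMB8 and PSMB10, and for the activators PSME1 and PSME2 described further on, since within each pair the genes were called in opposite directions at some dose. Each line gives the RefSeq sequence 5′ to 3′ on the strand of the gene, with the motif or its reverse complement in capitals and 10 bases on either side.
PSMB8 (chr6:32844032-32844060, minus strand): atctgtggctTTCGCTTTCacttcctcct
PSMB10 (chr16:67936853-67936881, minus strand): gggtaaaggcGAAAGCGAAagcaggaagt
PSME2 (chr14:24146620-24146648, minus strand): cctggggagtGAAAGCGAAagcccgggcg
PSME1 (chr14:24136190-24136218, plus strand): ccctaccgctTTCGCTTTCccttcgcggt
The PSMB10 and PSME2 stretches lie before the start site, and those of PSMB8 and PSME1 run across it. PSMB8 rose at 0.15 and 0.25 µM and PSME1 was higher at 1 µM, while PSMB10 and PSME2 fell. Windows of PSMA4, PSMB4, PSMC2 and PSMG4 also held the core and are not shown. It was in 5 of 40 windows (12.5%) of genes lower at 1 µM and in 3 of 9 (33.3%) of the genes tested that were not lower. These are too few to compare, and no test was made. PSMB9 and the other PSMB8 window held no match to the interferon response element core.

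The alpha rings gate the barrel and hold the beta rings. Of their 7 genes, 6 fell at each dose and PSMA2 was called at none, and with library totals 5 were lower at each dose. The lowest log2 fold change at 1 µM was that of PSMA1, -2.18 ± 0.19 (SE, edgeR, BH-adjusted p = 5.53e-09). PSMA1 went from 52.7, 63.5 and 66.6 CPM untreated to 33.4, 29.1 and 35.9 at 0.15 µM, 22.2, 21.0 and 29.6 at 0.25 µM, 13.8, 13.9 and 21.1 at 0.5 µM and 13.9, 12.6 and 13.7 at 1 µM. The groups at 0.15 and 1 µM did not overlap with each other or with the untreated libraries. PSMA2 had 1.96, 2.05 and 1.45 CPM untreated and 1.28, 1.52 and 1.53 at 1 µM, and these values overlapped. Its log2 fold change at 1 µM was -0.33 ± 0.40 (edgeR, BH-adjusted p = 0.480), which became 0.02 with library totals. PSMA1 was not called at 0.15 µM with library totals (log2 fold change -0.53). Both genes share exon bases with another gene, as given above.

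Among the 7 constitutive beta genes, 4, 6, 4 and 5 fell at the 4 doses and none rose. The 4 of 7 at 0.15 and 0.5 µM are not far from the 40.2% and 48.7% called lower among genes of 10 CPM or more. With library totals, and likewise with TMM over the well expressed genes, 4, 3, 3 and 3 of the 7 were lower and 0, 0, 1 and 1 higher. PSMB2, a beta subunit without an active site, was the lowest at 1 µM. It had 581, 642 and 667 CPM untreated, 226, 266 and 278 at 0.15 µM, 213, 219.5 and 199 at 0.25 µM, 182, 194 and 146 at 0.5 µM and 172, 160.5 and 167 at 1 µM. All treated libraries were far below the untreated ones, and the log2 fold change at 1 µM was -1.92 ± 0.15, or 3.78-fold lower (SE, edgeR, BH-adjusted p = 1.13e-09). PSMB4, another structural beta subunit, had 339, 364 and 339 CPM untreated, 261, 254 and 297 at 0.15 µM and 330.2, 368 and 306 at 1 µM. The untreated and 1 µM libraries overlapped, and the log2 fold change of -0.05 ± 0.17 (edgeR, BH-adjusted p = 0.800) turned to 0.30 with library totals and 0.33 with TMM over the well expressed genes, and it was called higher under both. PSMB1, called at no dose, had 313 to 316 CPM untreated and 228 to 258 CPM at 1 µM.

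All 6 ATPases of the 19S base, the ring that unfolds substrates, fell at each dose. Their log2 fold changes at 1 µM ran from -1.69 ± 0.14 for PSMC6 to -0.55 ± 0.15 for PSMC4 (SE, edgeR, BH-adjusted p = 3.99e-09 and 0.00396). PSMC6 had 131, 168 and 158 CPM untreated, 78.4, 70.6 and 68.8 at 0.15 µM and 49.5, 41.7 and 50.1 at 1 µM. PSMC4 had 228, 249 and 244 CPM untreated, 129, 139 and 156 at 0.15 µM, 133, 142 and 101 at 0.25 µM, 182, 185 and 138 at 0.5 µM and 173, 168 and 151 at 1 µM. For both genes the untreated libraries were the highest. With library totals 5 of the 6 remained lower at each dose, and PSMC4 was not called at 0.5 or 1 µM under that scaling.

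Of the 11 non-ATPases, which include the ubiquitin receptors and the deubiquitinase of the 19S particle, 9, 10, 8 and 8 fell at the 4 doses and none rose. With library totals 6, 8, 7 and 7 were lower and 0, 0, 2 and 2 higher. PSMD14, the deubiquitinase that takes the ubiquitin chain off a substrate at the entrance of the barrel, was the lowest at 1 µM. It had 207, 235 and 240.4 CPM untreated, 145, 118 and 141 at 0.15 µM, 87.0, 98.0 and 86.5 at 0.25 µM, 58.5, 67.0 and 45.4 at 0.5 µM and 55.4, 49.4 and 55.5 at 1 µM. No library of the 0.5 and 1 µM groups reached the range of the lower doses, and the log2 fold change was -0.76 ± 0.15 at 0.15 µM and -2.09 ± 0.15 at 1 µM (SE, edgeR, BH-adjusted p = 2.94e-04 and 6.99e-10). PSMD2, the large scaffold subunit of the base, behaved otherwise. It had 448, 494 and 518 CPM untreated, 258, 301 and 378 at 0.15 µM and 291, 307 and 206 at 0.25 µM. At 0.5 µM it had 598, 651 and 420.0 CPM and at 1 µM 575, 486 and 532 CPM. It was lower than untreated at 0.15 µM, where the log2 fold change was -0.64 ± 0.19, while the value of 0.13 ± 0.19 at 1 µM was not called (SE, edgeR, BH-adjusted p = 0.00915 and 0.573). The call at 0.15 µM was lost without 0.15 µM replicate 1 (log2 fold change -0.52) and with library totals, and under that scaling and with TMM over the well expressed genes PSMD2 and PSMD4 were higher at 0.5 and 1 µM. PSMD4, a ubiquitin receptor, had 330.4 to 343 CPM untreated and 318 to 364 CPM at 1 µM. PSMD13, a lid subunit called at no dose, had 384 to 402 and 284 to 396 CPM.

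**Figure D4:**
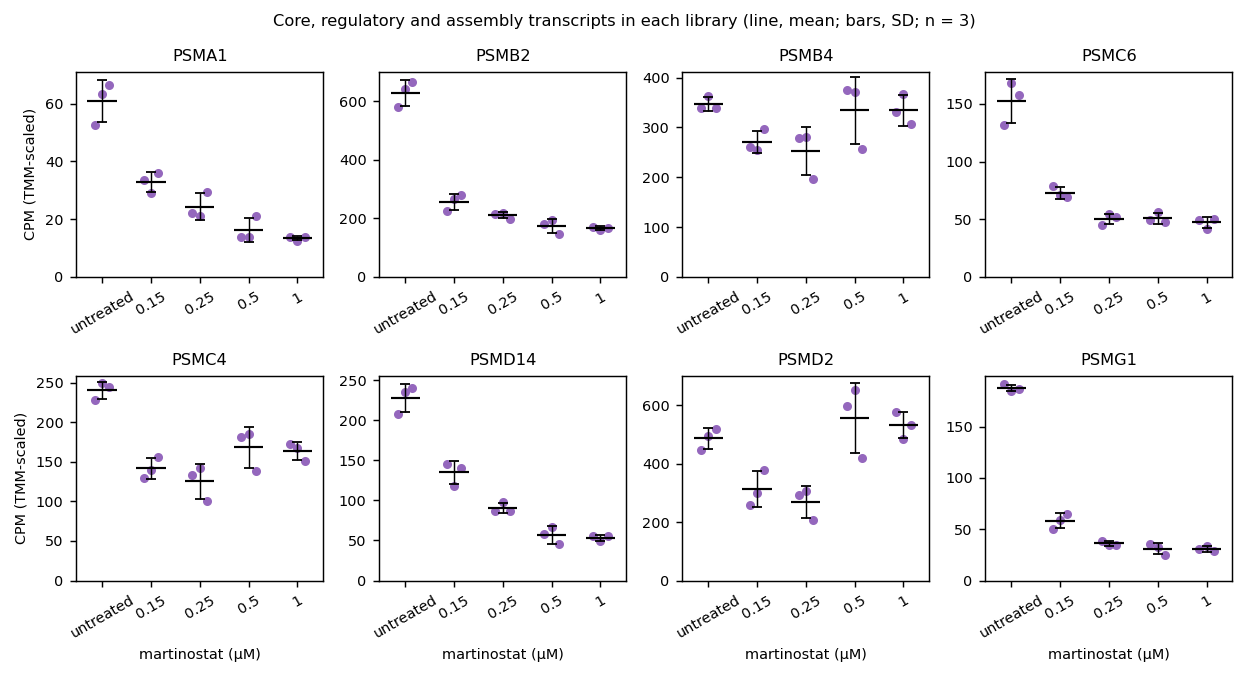
TMM-scaled CPM by martinostat dose of 8 genes, chosen as the highest or lowest log2 fold change of their class at 1 µM. Points are libraries, lines group means and bars SD (n = 3), on linear axes from 0 that differ between panels; the means of PSMA1, PSMB2, PSMD14 and PSMG1 are lower at each higher dose and that of PSMC6 is alike at 0.25 and 0.5 µM, while PSMB4, PSMC4 and PSMD2 are lowest at 0.25 µM and higher again at 0.5 and 1 µM.

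The assembly chaperones build the rings and leave the finished particle. All 7 fell at each dose, 6 of them over 2-fold at 1 µM, and their median log2 fold change of -1.52 at 1 µM was the lowest of the classes with several genes. PSMG1, the chaperone that pairs with PSMG2 to form the alpha ring, had the lowest value of all members at 1 µM after PSMB10. It had 191, 185 and 187 CPM untreated, 50.4, 59.3 and 65.2 at 0.15 µM, 39.0, 34.8 and 35.1 at 0.25 µM, 35.4, 32.6 and 25.1 at 0.5 µM and 30.3, 33.8 and 28.5 at 1 µM. The treated libraries were clear of the untreated ones from the lowest dose on, and the log2 fold change was -1.69 ± 0.15 at 0.15 µM and -2.60 ± 0.15 at 1 µM, or 6.07-fold lower (SE, edgeR, BH-adjusted p = 2.25e-08 and 3.19e-11). PSMD9, a chaperone of the 19S base, fell least. It had 16.4, 14.6 and 16.2 CPM untreated, 9.46, 9.85 and 10.5 at 0.15 µM and 9.97, 10.6 and 9.97 at 1 µM, with a log2 fold change of -0.63 ± 0.17 at 1 µM (SE, edgeR, BH-adjusted p = 0.00359) that was no longer called with library totals. With library totals 4, 6, 6 and 6 of the 7 were lower at the 4 doses and with TMM over the well expressed genes 5, 7, 6 and 6, and none was higher under either.

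The activators open the gate of the barrel in place of the 19S particle. PSME1 and PSME2 form the interferon-induced ring that goes with the immunoproteasome, and they were called in opposite directions at 0.5 and 1 µM. PSME1 had 41.6, 51.0 and 49.9 CPM untreated, 52.1, 50.7 and 53.6 at 0.15 µM, 83.4, 81.6 and 47.2 at 0.5 µM and 69.6, 65.0 and 64.9 at 1 µM. The 1 µM libraries were all above the untreated ones while those at 0.15 and 0.5 µM overlapped them. The log2 fold change was 0.13 ± 0.19 at 0.15 µM and 0.49 ± 0.19 at 1 µM (SE, edgeR, BH-adjusted p = 0.591 and 0.0345), and the call at 1 µM was lost when any of the 6 libraries compared was left out in turn, with log2 fold changes of 0.40 to 0.54. At 0.5 µM the log2 fold change of PSME1 was 0.57 ± 0.19, and that call was lost without untreated replicate 1 or without 0.5 µM replicate 1 or 2. PSME2 had 53.6, 65.2 and 67.1 CPM untreated, 39.9, 43.1 and 58.8 at 0.15 µM and 37.8, 42.2 and 40.2 at 1 µM. All its 1 µM libraries were below the untreated ones, with a log2 fold change of -0.63 ± 0.16 (SE, edgeR, BH-adjusted p = 0.00177). This fall was not called with library totals (-0.27), and the call at 0.15 µM (log2 fold change -0.39, adjusted p = 0.0448 in edgeR) was lost in 16 of the 25 alternatives.

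PSME3, the nuclear activator, fell the most of this class. It had 571, 626 and 683 CPM untreated, 243, 259.6 and 251 at 0.15 µM, 171, 191 and 146 at 0.25 µM, 186, 199.5 and 130.3 at 0.5 µM and 176, 176 and 175 at 1 µM. The groups were clear of the untreated one at each dose and the log2 fold change at 1 µM was -1.83 ± 0.16 (SE, edgeR, BH-adjusted p = 9.82e-09). PSME4, an activator linked to the degradation of acetylated histones, had 294, 294 and 328 CPM untreated, 249, 263 and 219 at 0.15 µM and 210.5, 180.1 and 235 at 1 µM. Its log2 fold change was -0.33 ± 0.14 at 0.15 µM, where it was not called and turned to 0.04 with library totals, and -0.55 ± 0.14 at 1 µM (SE, edgeR, BH-adjusted p = 0.0572 and 0.00194), the latter not called with library totals (-0.19). The inhibitor PSMF1 had 184, 207 and 229 CPM untreated, 178, 181 and 198 at 0.15 µM and 152, 141 and 159 at 1 µM. Its log2 fold change of -0.46 ± 0.19 at 1 µM (edgeR, BH-adjusted p = 0.0396) lay close to the threshold and was lost in 11 of the 25 alternatives, among them those without untreated replicate 2 or 3 or any of the 1 µM replicates (-0.54 to -0.38 over the libraries left out), while the value of -0.16 at 0.15 µM was not called and turned to 0.20 with library totals.

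**Figure D5:**
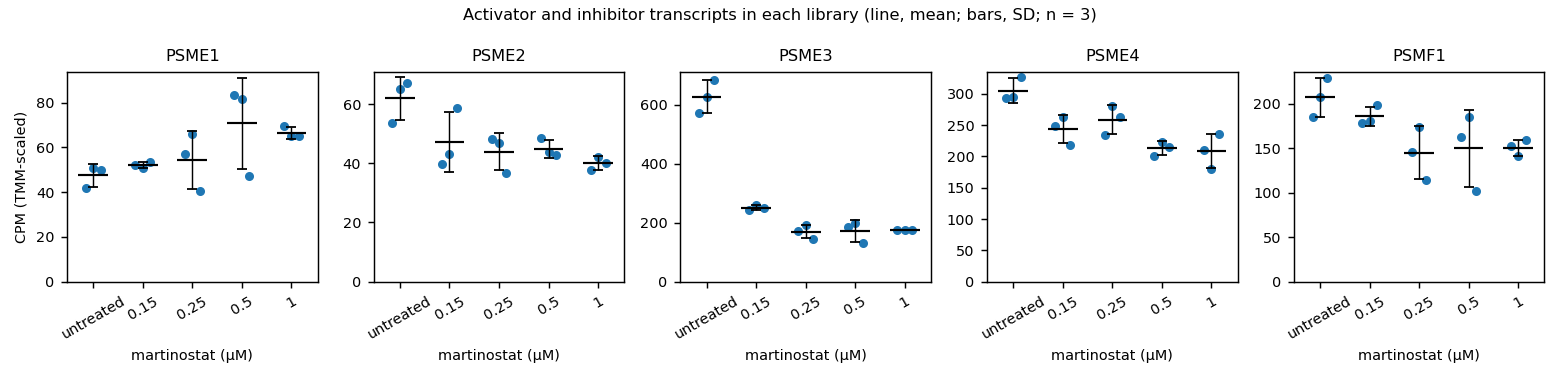
TMM-scaled CPM of the activator genes PSME1 to PSME4 and the inhibitor gene PSMF1 by martinostat dose. Points are libraries, lines group means and bars SD (n = 3), on linear axes from 0 that differ between panels; PSME3 falls at the lowest dose already, PSME2, PSME4 and PSMF1 have lower means at 1 µM than untreated, and the 1 µM libraries of PSME1 lie above its untreated ones.

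Fewer of the genes differed between the lowest and the highest dose. At 1 µM, 17 of the 46 genes were lower than at 0.15 µM and 1 was higher, where 23.1% of all genes tested were called lower and 21.5% higher. Among the 10128 genes of 10 CPM or more, 33.9% were called lower and 22.8% higher, so the 17 of 46 lie near the share of well expressed genes. There were 15 genes that were lower than untreated at all doses and lower again at 1 than at 0.15 µM, among them PSMD14 (log2 fold change -1.33 ± 0.15), PSMA1 (-1.29 ± 0.18), PSMG1 (-0.92 ± 0.14) and PSMB5 (-0.85 ± 0.17, all SE). The share of all genes tested with this pattern was not counted. All 3 inducible catalytic genes were lower at 1 than at 0.15 µM, PSMB8 by a log2 fold change of -1.54 ± 0.32, PSMB10 by -1.23 ± 0.29 and PSMB9 by -0.72 ± 0.24 (edgeR, BH-adjusted p = 7.53e-04, 0.00169 and 0.0219). The call of PSMB9 was lost without 0.15 µM replicate 3 or without 1 µM replicate 1 or 3, with log2 fold changes of -0.89 to -0.55 over the libraries left out, and in DESeq2. PSMD2 was the gene that was higher at 1 µM, by 0.77 ± 0.19 (SE, edgeR, BH-adjusted p = 0.00304), with its 3 libraries at 1 µM above those at 0.15 µM.

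The tissue-restricted genes stayed near 0. PSMA8, the alpha subunit of the testis proteasome, had 0 counts in the untreated libraries and 0 to 9 counts in the treated ones. PSMB11, the beta subunit of the thymus, had 2 counts in 1 library at 0.15 µM and 0 in the other 14. Taking 3 counts over the group as the limit that a count of 0 allows, the untreated level of either gene may be up to 0.0395 CPM, counting error alone considered.

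Most of the genes that work with the proteasome fell too. Of 11 proteasome parts and partners that carry other names, 7, 9, 10 and 9 fell at the 4 doses and none rose, where 19.4%, 24.8%, 27.6% and 27.5% of all genes tested and 40.2%, 48.7%, 48.7% and 48.4% of those of 10 CPM or more were called lower. Their median log2 fold change at 1 µM was -0.83, against 0.32 over all genes. ECPAS, which holds the 19S particle to the core, went from 347, 338 and 365 CPM untreated to 117, 137 and 144 at 0.15 µM and 34.8, 31.0 and 38.3 at 1 µM, a log2 fold change of -3.33 ± 0.15 (SE, edgeR, BH-adjusted p = 9.90e-13). UCHL5, a deubiquitinase bound to the 19S particle, had a log2 fold change of -2.22 ± 0.15 at 1 µM and SEM1, a small lid subunit, -1.07 ± 0.14 (SE, edgeR, BH-adjusted p = 1.70e-10 and 2.45e-06). POMP, the chaperone that joins the beta rings, had 204, 242 and 216 CPM untreated and 123, 125 and 132 at 1 µM, with all 1 µM libraries below the untreated ones and a log2 fold change of -0.80 ± 0.18 (SE, edgeR, BH-adjusted p = 5.24e-04). ADRM1, a ubiquitin receptor, had 167, 144 and 145 CPM untreated and 119.7, 192 and 105 at 1 µM. Its groups overlapped, and the log2 fold change of -0.13 ± 0.34 (edgeR, BH-adjusted p = 0.753) became 0.22 with library totals.

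NFE2L1 itself was called at no dose. It had 184, 203 and 212 CPM untreated, 161, 177 and 219.8 at 0.15 µM and 171, 157 and 179.6 at 1 µM, and the log2 fold change at 1 µM was -0.24 ± 0.14 (edgeR, BH-adjusted p = 0.145), which turned to 0.12 with library totals. Of the 10 genes listed for the NFE2L1 axis, its processing enzymes, partners and relatives, 4, 6, 7 and 7 fell at the 4 doses and 0, 0, 1 and 1 rose, with a median log2 fold change of -0.69 at 1 µM. The 4 of 10 at 0.15 µM are near the 40.2% called lower among all genes of 10 CPM or more. MAFG, a small MAF protein that pairs with NFE2L1 on DNA, went from 159, 162 and 166 to 53.1, 50.8 and 56.5 CPM at 1 µM. NGLY1, the enzyme that removes sugars from NFE2L1 before it can act, went from 61.7, 68.2 and 62.7 to 22.6, 22.2 and 20.5 CPM. The 1 µM libraries lay below the untreated ones in both, with log2 fold changes of -1.60 ± 0.13 and -1.56 ± 0.15 (SE, edgeR, BH-adjusted p = 2.60e-09 and 2.79e-08). Of 15 genes that supply ubiquitin or shuttle substrates, 9, 12, 9 and 9 fell and 0, 0, 1 and 1 rose, with a median of -0.80 at 1 µM. Beside both lists, 19.4%, 24.8%, 27.6% and 27.5% of all genes tested were called lower at the 4 doses. The shares called higher were 31.9%, 37.4%, 39.4% and 38.8%. Among genes of 10 CPM or more, 40.2%, 48.7%, 48.7% and 48.4% were called lower. The shuttle genes UBQLN4 and RAD23B had log2 fold changes of -1.47 ± 0.15 and -1.45 ± 0.16 at 1 µM (SE, edgeR, BH-adjusted p = 8.26e-08 and 2.16e-07).

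The regulators of the immunoproteasome and the genes that carry its peptides had 1, 2, 4 and 4 of 11 genes lower and 3, 5, 5 and 6 higher at the 4 doses. These counts lie near the shares over all genes tested, which were 19.4%, 24.8%, 27.6% and 27.5% lower and 31.9%, 37.4%, 39.4% and 38.8% higher, and the median log2 fold change at 1 µM was 0.37 against 0.32 over all genes. NLRC5, the transactivator of MHC class I genes, had 0.654, 0.309 and 0.783 CPM untreated, 6.71, 5.93 and 8.60 at 0.15 µM and 3.37, 3.45 and 5.47 at 1 µM. As with PSMB9, its treated libraries were all above the untreated ones, and its log2 fold change was 2.81 ± 0.32 at 1 µM (SE, edgeR, BH-adjusted p = 3.15e-07). TAP1, the peptide transporter gene that shares its promoter region with PSMB9, was chosen after its values were seen. It had 4.62, 4.21 and 3.6 CPM untreated, 25.7, 22.1 and 21.6 at 0.15 µM and 18.0, 18.3 and 19.7 at 1 µM, with a log2 fold change of 2.17 ± 0.19 (SE, edgeR, BH-adjusted p = 9.26e-09). IRF8, an interferon regulatory factor of myeloid and B cells, had 0 counts in the untreated libraries and 5.29, 4.04 and 3.31 CPM at 1 µM. This was at least 106-fold higher when 3 counts over the untreated group are taken as the floor. IRF8 passed the count filter through treated libraries alone, so no p-value is given for it. ERAP1, which trims peptides for MHC class I, fell from 49.9, 61.4 and 62.2 to 8.20, 8.08 and 11.3 CPM at 1 µM, a log2 fold change of -2.65 ± 0.23 (SE, edgeR, BH-adjusted p = 9.03e-09).

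Windows with the antioxidant response element core are shown for PSMB9, which rose, and for PSMG1, PSMA4, PSMD12 and PSMD3, which fell at all 4 doses.
PSMB9 (chr6:32854034-32854062, plus strand): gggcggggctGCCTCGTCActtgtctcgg
PSMG1 (chr21:39183616-39183644, minus strand): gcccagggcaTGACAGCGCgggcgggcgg
PSMA4 (chr15:78540650-78540678, plus strand): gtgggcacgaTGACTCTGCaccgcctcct
PSMD12 (chr17:67366724-67366752, minus strand): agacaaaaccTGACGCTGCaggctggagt
PSMD3 (chr17:39980760-39980788, plus strand): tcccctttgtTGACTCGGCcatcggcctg
The core was found in 13 of 40 windows (32.5%) of genes lower at 1 µM and in 2 of 9 windows (22.2%) of the genes tested that were not lower, which are too few to compare, and no test was made. By class it was in 4 of 7 windows of the assembly chaperones, 3 of 4 of the activators, 5 of 18 of the 19S genes and 2 of 14 of the alpha and constitutive beta genes.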

How the data were processed

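Poly(A) mRNA libraries of 15 K562 cultures were sequenced. Per the authors, reads were trimmed (Trim Galore 0.6.10), aligned to hg38 (HISAT2 2.2.1) and handled with SAMtools 1.21, and featureCounts 1.5.3 gave the deposited counts per gene; these versions are in the submitters' processing notes, and whether counting used the strand is not given in the sources used here. The authors also deposited FPKM values, fragments scaled to gene length and library size, whose gene lengths match the whole gene span, so they served only for an alternative.

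Counts were tested with edgeR 4.0.16 in R 4.3.3: filterByExpr (23711 genes), TMM, a robust quasi-likelihood fit of 5 groups over 15 libraries, and Benjamini-Hochberg adjustment over all genes tested (threshold 0.05). Totals were 23755510 to 32805574 counts, and floors (3 counts over a group) cover counting error alone. Catalytic pairs were compared as log2 ratios of CPM with 2-sided exact permutation tests. Exon lengths, positions and overlaps came from GENCODE release 44, and 99.7% of gene IDs had a symbol. Fits were tested on simulated data.

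The members, classes and lists were chosen with earlier results of these data known. Values per library were printed for the catalytic pairs, activators and PSMF1, for the highest and the lowest log2 fold change of each other class at 1 µM, and for NFE2L1, POMP, ADRM1 and up to 3 called genes per list with an absolute log2 fold change over 1. A list gene that met this rule is not reported here. Other genes named were chosen after their values were seen. The alternatives were RLE size factors, library totals, TMM over genes of 10 CPM or more, no filter or 10 counts in every library, a replicate block, only the groups compared, DESeq2 1.42.0, limma 3.58.1 on log2(FPKM + 1) of genes with a mean FPKM of at least 0.1, leaving out each library in turn and, added after seeing the data, leaving out replicate 3 at 0.25 µM and replicate 3 at 0.5 µM together.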

Additional observations from a re-analysis of the deposited data

Results flagged for a closer look

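PSMD2, the scaffold subunit of the 19S base, was flagged for opposite signs at 0.15 and 1 µM against untreated, with a called difference between these doses. Of the values against untreated, the fall at 0.15 µM was called and the value at 1 µM was not. Its level was higher at 1 µM than at 0.15 µM by a log2 fold change of 0.77 (edgeR, BH-adjusted p = 0.00304), and all 3 libraries at 1 µM lay above the 3 at 0.15 µM. The call was kept in all 25 alternatives, with log2 fold changes of 0.64 to 0.97 over the libraries left out in turn.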

How the results depend on the processing

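Of the single-gene values recomputed under the 25 alternatives, 1963 kept their direction and side of the threshold, 73 lost a call, 29 gained one and 31 changed sign, while 274 of the counts of called genes and pair ratios stayed within the limits used here and 24 moved. The cause of the changes was not tested. Leaving out each library in turn gave 32 to 37, 33 to 40, 32 to 37 and 33 to 38 genes lower at the 4 doses, 14 to 20 lower at 1 than at 0.15 µM, and 1 to 2 genes higher at 0.5 µM, at 1 µM and at 1 against 0.15 µM.

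The count of genes higher at 0.5 µM was 6 with library totals, 6 with TMM over genes of 10 CPM or more, 5 with limma and 4 without the pair of libraries that stand apart. At 1 µM it was 5, 5 and 4 with the first 3 of these. For 1 against 0.15 µM it was 2 with totals, 5 with TMM over genes of 10 CPM or more, 2 with 10 counts in every library, 2 with only the groups compared, 2 with DESeq2, 2 with limma and 4 without the pair of libraries.

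Sign changes were in values that were not called in the main edgeR fit. With the changed sign, PSMB4 at 1 µM was called higher with library totals, with TMM over genes of 10 CPM or more and with limma. With library totals the log2 fold change was 0.0364 for PSME4 and 0.20 for PSMF1 at 0.15 µM, and at 1 µM 0.0183 for PSMA2, 0.30 for PSMB4, 0.12 for NFE2L1 and 0.22 for ADRM1. With TMM over genes of 10 CPM or more it was 0.10 for PSMF1 at 0.15 µM, and at 1 µM 0.0478 for PSMA2, 0.33 for PSMB4, 0.14 for NFE2L1 and 0.25 for ADRM1. With 10 counts in every library it was 0.0204 for PSMF1 at 0.15 µM, and at 1 µM 0.22 for PSMB4, 0.0364 for NFE2L1 and 0.15 for ADRM1. With limma it was 0.0217 for PSME4 and 0.14 for PSMF1 at 0.15 µM, and at 1 µM 0.0015 for PSMA2, 0.29 for PSMB4, 0.10 for NFE2L1 and 0.17 for ADRM1. PSMB4 at 1 µM was also 0.0080 with RLE, 0.0114 with only the groups compared and 0.0088 with DESeq2. Leaving out a library gave -0.13 to 0.50 for PSMB8, -0.12 to 0.0049 for PSMB4 and -0.44 to 0.0351 for ADRM1 at 1 µM, -0.0731 to 0.43 for PSMA2 at 0.15 µM, and -0.0060 to 0.12 for PSMD9 at 1 against 0.15 µM.

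Deviations of same-numbered libraries correlated at 0.266, 0.268 and 0.579 between 0.25 and 0.5 µM, a comparison not made here. Differently numbered libraries of these groups reached 0.236, close to the values of replicates 1 and 2. Whether the numbers pair these groups can therefore not be told. Between all other pairs of groups, same-numbered libraries correlated at 0.0918 or less, so the numbers did not pair the samples of the comparisons given. With a replicate block 34, 38, 37 and 37 genes were lower and 2 higher at each of the 4 doses, and 17 were lower and 1 higher at 1 against 0.15 µM. Depth limits PSMB9 in untreated cells (10 to 19 counts a library), PSMA8 and PSMB11.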
